A study of Mus musculus with 2 samples.

Results

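The 7 transcription factors Ptf1a, Rbpjl, Bhlha15, Nr5a2, Gata4, Gata6 and Foxa3 were followed in single cells of mouse pancreatic tumours. They are listed here as factors of the lineage of the enzyme-secreting acinar cell of the pancreas. They were chosen by gene symbol from the 32285 genes of the deposited matrices, and each symbol was found once. The EL1 library came from EL1-Luc/EL1-Tag mice on the FVB/N strain. In them the elastase I promoter drives luciferase and the SV40 T antigen in acinar cells. The tumours of both groups thus start from the cell type for which the 7 factors are listed. The WTg library came from EL1-Luc/EL1-Tag x CAG-Mettl3 mice, which carry the same transgenes and, in addition, Mettl3, the enzyme that writes N6-methyladenosine on RNA, under the ubiquitous CAG promoter. The Mettl3 line was made in C57BL/6 mice, so strain background and transgene cannot be told apart. Mice of both groups were 6 weeks old, and the number of animals behind each library was not given in the sources used here.

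There was 1 library per group, so no difference was tested and the spread between animals is unknown. Values are sums of unique molecular identifiers (UMIs, each marking 1 captured RNA molecule) over cells, divided by all UMIs of the same cells and given per 1000000 (CPM). All intervals are exact, at 95%, and cover counting error only. After filtering, 1113 EL1 cells with 37961287 UMIs (median 26543 per cell) and 905 WTg cells with 33007683 UMIs (median 34836) remained. The libraries shared 15 barcodes before filtering and 0 after it. The level of Mettl3 was 15.1 CPM in the EL1 library against 66.7 CPM in the WTg library, the direction of the labels. The cells were labelled epithelial. However, 99 EL1 and 80 WTg cells lay in clusters named by macrophage, T or NK cell, B cell, endothelial or erythroid markers. The remaining 1014 EL1 and 825 WTg cells are called tumour epithelium here.

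As background, Ptf1a and Rbpjl are subunits of the trimeric factor PTF1, in which Ptf1a pairs with an E-protein of the basic helix-loop-helix family and Rbpjl takes the place that Rbpj holds in the embryo. PTF1 binds an E-box and a nearby TC-box before many digestive enzyme genes and acts on the genes of its own subunits. Bhlha15, also called Mist1, is a basic helix-loop-helix factor that scales up the secretory apparatus. Nr5a2 is an orphan nuclear receptor that works together with PTF1 on acinar genes. Gata4 and Gata6 are zinc finger factors needed in the early pancreas, Gata6 also in the adult acinar cell. Foxa3 is a forkhead factor of the Foxa family and is found in endoderm-derived organs, including the pancreas.

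Letter matches to the bipartite PTF1 site occur in some of the enzyme promoters. An E-box (CANNTG) and a TC-box (TTTCCC, or GGGAAA on the other strand), at most 25 bases apart, were sought in the 250 bases before each RefSeq gene start (GRCm38.p6). Of 32851 such windows, 4.59% held the pair. Of the 31 digestive enzyme genes of the list used here, 26 were matched and 6 held it, namely Prss1, Cela1, Cela3a, Ctrb1, Cpa1 and Cel. The gap was 4 bases in 3 of these 6 windows and in 56 of all 1508 windows with a pair. Those 3 windows are shown 5′ to 3′ as examples of this letter match, with E-box and TC-box in capitals. Whether PTF1 binds them was not tested. Cela1 encodes elastase 1, the enzyme that gave the transgene promoter its name (chr15:100687921-100688170, minus strand). Ctrb1 encodes chymotrypsinogen (chr8:111691011-111691260, minus strand) and Prss1 a trypsinogen (chr6:41458680-41458929, plus strand).
Cela1: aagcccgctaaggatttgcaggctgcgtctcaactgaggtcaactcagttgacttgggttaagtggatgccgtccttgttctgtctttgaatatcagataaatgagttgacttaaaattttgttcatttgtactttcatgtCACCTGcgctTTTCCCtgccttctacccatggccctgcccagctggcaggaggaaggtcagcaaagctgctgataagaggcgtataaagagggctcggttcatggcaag
Ctrb1: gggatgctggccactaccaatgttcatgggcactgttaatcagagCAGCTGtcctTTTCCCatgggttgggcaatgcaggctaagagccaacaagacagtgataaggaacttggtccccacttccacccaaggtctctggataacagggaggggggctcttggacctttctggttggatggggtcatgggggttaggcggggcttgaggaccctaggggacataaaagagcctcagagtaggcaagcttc
Prss1: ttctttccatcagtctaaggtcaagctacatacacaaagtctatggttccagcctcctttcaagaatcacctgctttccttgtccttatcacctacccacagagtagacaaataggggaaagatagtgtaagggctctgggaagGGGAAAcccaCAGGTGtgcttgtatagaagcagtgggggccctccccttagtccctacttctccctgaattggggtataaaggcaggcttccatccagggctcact

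Of the members, 5 of 7 had windows in the same table (6 windows, as Nr5a2 had 2), and 0 held the pair. Rbpjl (window chr2:164402944-164403193, plus strand) is shown because it is both a PTF1 subunit and a known PTF1 target, with 2 E-boxes and 1 GATA motif (AGATAA, or TTATCT on the other strand) in capitals. The E-boxes began 93 and 82 bases and the GATA motif 31 bases before the RefSeq start. That start lies after the GENCODE start of Rbpjl (chr2:164403141). The end of the window, with the GATA motif, is thus inside the gene as GENCODE draws it. A GATA motif was present in 9.99% of all windows. These matches describe letters and not bound sites, and more distant sequence was not examined.
Rbpjl: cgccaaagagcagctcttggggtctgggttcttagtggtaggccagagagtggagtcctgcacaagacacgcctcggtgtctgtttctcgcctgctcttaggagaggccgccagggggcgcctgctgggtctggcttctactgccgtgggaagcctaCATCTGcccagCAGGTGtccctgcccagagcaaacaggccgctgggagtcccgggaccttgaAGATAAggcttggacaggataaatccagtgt

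In GENCODE M21 (GRCm38), the genes are at chr2:19445663-19447501 for Ptf1a, chr2:164403141-164415448 for Rbpjl, chr5:144190286-144194441 for Bhlha15, chr1:136842571-136960448 for Nr5a2, chr14:63198922-63271692 for Gata4 and chr7:19013284-19023538 for Foxa3, Nr5a2, Gata4 and Foxa3 being on the minus strand. All 7 factors were detected in both libraries, and they ran from Rbpjl, found in most cells, to Gata6, found in few cells of EL1. Rbpjl had 4903 UMIs in 80.8% of EL1 cells and 4443 UMIs in 77.3% of WTg cells. Ptf1a had 2005 UMIs in 37.6% of EL1 cells and 1035 UMIs in 27.6% of WTg cells. Bhlha15 and Foxa3 were found in 51.8% and 50.9% of EL1 cells and in 59.1% and 60.9% of WTg cells. Gata4 was found in 46.5% and 53.1% of cells and Nr5a2 in 32.4% and 38.7%, EL1 first. Gata6 had 78 UMIs in 4.85% of EL1 cells and 431 UMIs in 27.0% of WTg cells. As WTg cells were sequenced deeper, each cell was also thinned to 2000 UMIs, which left out 62 EL1 and 69 WTg cells. On thinned cells Bhlha15 was seen in 7.14% (5.65 to 8.86) of EL1 and 13.04% (10.8 to 15.5) of WTg cells, and Ptf1a in 8.28% (6.68 to 10.1) and 6.22% (4.68 to 8.08).

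Immune cells had next to none of the 7 factors. The 117 cells of the macrophage-, T or NK- and B-like clusters, where enzymes took a median of 0.197% to 0.266% of UMIs, held 1711494 UMIs, of which 8 were UMIs of members. That is 4.67 CPM for the 7 factors together, against 371 CPM in the tumour epithelium. Ptf1a had 3, Rbpjl 4 and Foxa3 1 of those 8 UMIs, and the other 4 factors had 0, which allows up to 3 counts each. No cluster took the neutrophil-like name, so the immune background rests on these 3 clusters. The macrophage-like cluster raised all 6 macrophage markers and also all 5 neutrophil markers. Whether it also held neutrophils was not tested. On thinned cells, Rbpjl was seen in 1 of 47 immune-like cells of EL1 (2.13%, 0.0539 to 11.3) against 24.5% of all EL1 cells, and in 1 of 60 of WTg (1.67%, 0.0422 to 8.94) against 23.2%, and the other 6 factors in 0 cells, which allows up to 3 of the cells, or 6.38% and 5%, to hold a UMI after thinning and sets no limit on how many express the gene. The median depth before thinning was 7411 and 9168 UMIs in these immune-like cells and 28320 and 36521 UMIs in all cells. The endothelial-like cluster was different. It raised all 6 endothelial markers, but also 4 of the 6 fibroblast markers. Whether it mixed kinds of stromal cell was not tested. Its 32 EL1 cells had 33 UMIs of Ptf1a in 8 cells (30.4 CPM) and 36 of Rbpjl in 12 (33.1 CPM), and also 16 of Bhlha15, 20 of Nr5a2, 24 of Gata4 and 26 of Foxa3. Their median enzyme share was 4.47%, against 0.114% in its 12 WTg cells, which had 0 UMIs of Ptf1a and Rbpjl, 1 of Nr5a2 and 6 of Gata6 (in 3 cells). Whether some of these barcodes also held an epithelial cell was not tested. In the 18 erythroid-like cells, whose median enzyme share was 12.7%, Rbpjl had 13 UMIs (199 CPM) and Ptf1a 0. All 13 were in the 17 EL1 cells, where Rbpjl was at 337.5 CPM (180 to 577).

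The tumour epithelium fell into 12 clusters, most of them from 1 library. Each is named here by leading genes, since only neuroendocrine-like cells raised at least 3 markers of a fixed class. Deep clusters rich in digestive enzymes were the S100g/Thbs1 cells (281 EL1, 3 WTg), the Sycn/Prss1 cells (5 EL1, 273 WTg) and the Ctrl/Spp1 cells (3 EL1, 117 WTg), in which enzymes took a median of 23.0%, 22.9% and 29.9% of UMIs. Neuroendocrine-like cells were the Resp18/Penk cells (221 EL1, 2 WTg; 8.38% enzymes) and the Serpina1c/Pcsk2 cells (26 EL1, 178 WTg; 11.5%). They raised 3 and 5 of the 8 neuroendocrine markers. Fst/Smarca1 cells were from EL1 (137 of 138). Clusters led by histone and cell division genes were the Pbk/Ccna2 cells (97 EL1, 2 WTg) and the Top2a/Mki67 cells (1 EL1, 81 WTg). Atp4b/Klk1 cells (76 EL1, 0 WTg) were led by subunits of the gastric proton pump. Fos/Egr4 cells (79 EL1, 33 WTg), led by immediate early and heat shock genes, came from both. Kcnq1ot1/Malat1 cells (4.81% enzymes) and Reg2/Ptgds cells (23.3% enzymes) came from both libraries too, but had medians of only 1954.5 and 3434 UMIs. Chga, a neuroendocrine marker, was not confined to the neuroendocrine-like cells. It was at 8800 CPM in Resp18/Penk cells of EL1 and 5780 CPM in Serpina1c/Pcsk2 cells of WTg. In EL1 it was also at 5730 CPM in Fst/Smarca1 cells and 5867 CPM in Fos/Egr4 cells. As the members were left out of the clustering, their levels did not set these clusters directly.

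**Figure D1:**
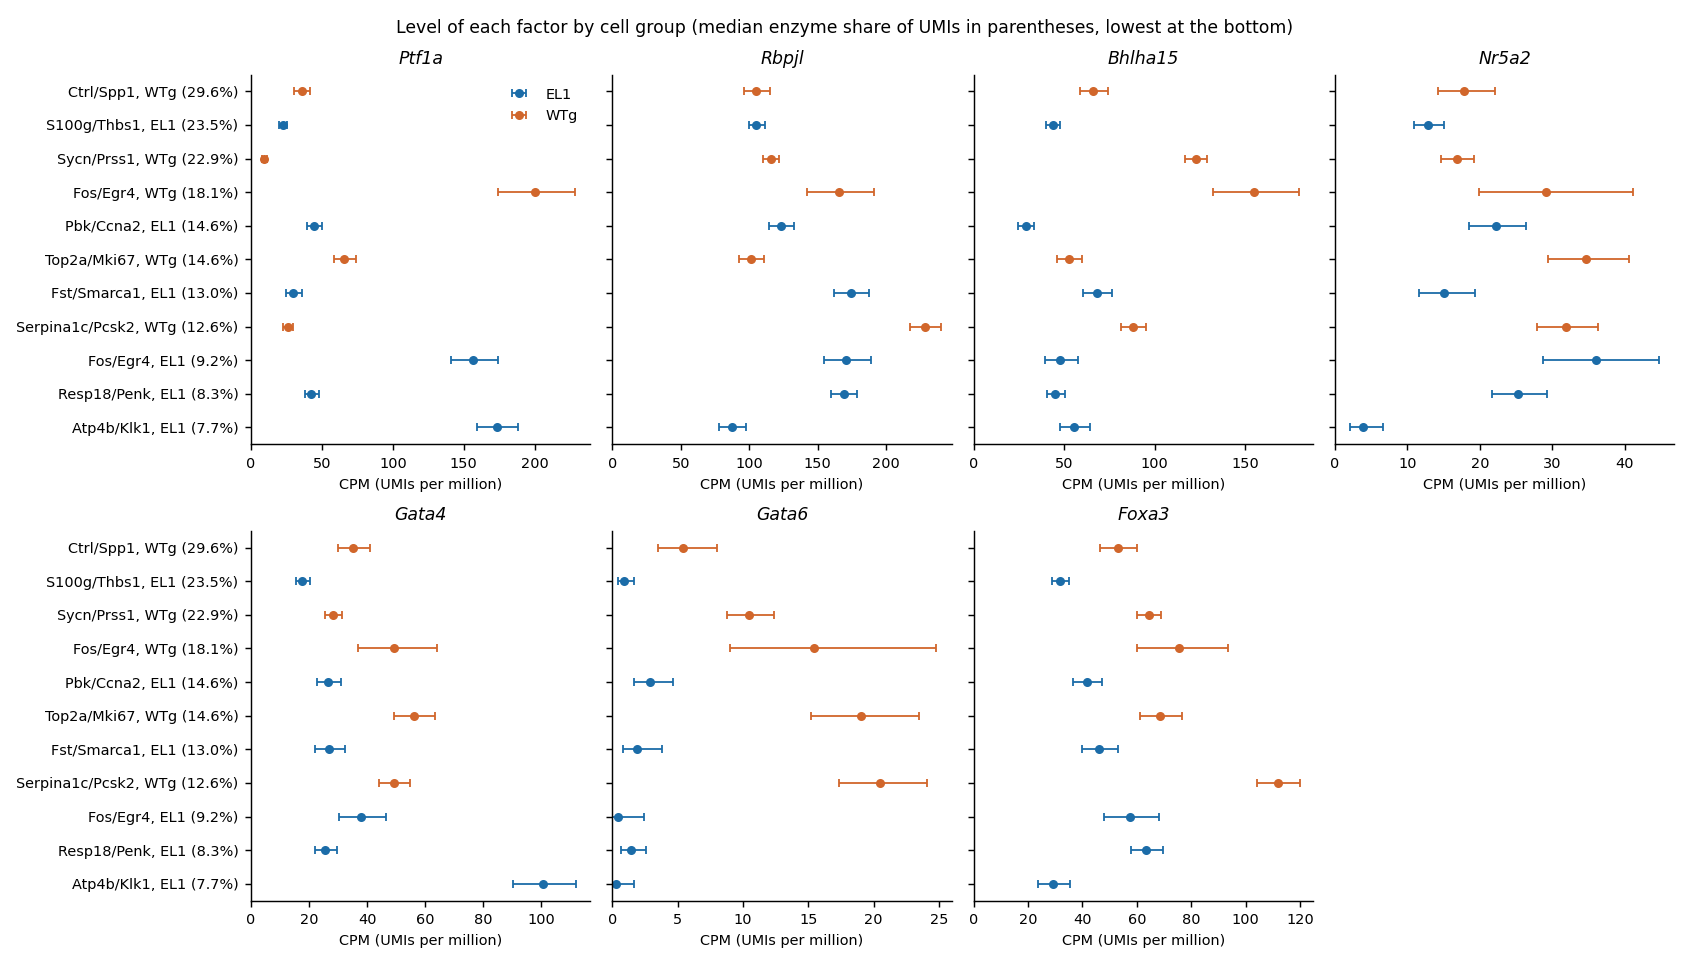
Level of each factor (CPM, horizontal axis) in the 11 groups of cluster and library with at least 20 cells and 1000000 UMIs, ordered upwards by their median enzyme share of UMIs (in parentheses). Points are summed counts and bars exact 95% Poisson intervals. Ptf1a stands out in Fos/Egr4 and Atp4b/Klk1 cells (157 to 200 CPM), while Gata6 separates the libraries in the groups shown, with every WTg group (5.43 to 20.5 CPM) above every EL1 group shown (0.298 to 2.88 CPM).

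Ptf1a, the basic helix-loop-helix subunit of PTF1, was the factor most concentrated in few cells after Gata6 of EL1. The order of the groups is given for each factor over the 11 groups with at least 1000000 UMIs, called large groups here. Among them the level of Ptf1a was 200 CPM (175 to 228) in Fos/Egr4 cells of WTg, 173 CPM (160 to 188) in Atp4b/Klk1 cells and 157 CPM (141 to 174) in Fos/Egr4 cells of EL1. The intervals of neighbours among these 3 overlapped. Next came the Top2a/Mki67 cells with 65.7 CPM (58.4 to 73.7), apart from the large groups above and below. The small Serpina1c/Pcsk2 group of EL1 had 83.7 CPM (63.8 to 108). At the low end were the enzyme-rich Sycn/Prss1 cells with 9.34 CPM (7.77 to 11.1) and S100g/Thbs1 cells with 22.4 CPM (19.8 to 25.2), but the next were the Serpina1c/Pcsk2 cells of WTg (25.9 CPM, 12.6% enzymes) and the Fst/Smarca1 cells (29.9 CPM, 13.03%). The Ctrl/Spp1 cells, which had the highest enzyme share, stood above these at 35.9 CPM (30.6 to 41.8). The highest large group exceeded the lowest 21.4-fold. Atp4b/Klk1 and Fos/Egr4 cells made up 6.83% and 7.10% of EL1 cells but held 29.0% and 17.8% of its Ptf1a UMIs, and Fos/Egr4 cells made up 3.65% of WTg cells with 21.3% of them. Over the tumour epithelium, the 101 EL1 cells with the most Ptf1a held 68.3% of its UMIs and the 82 WTg cells with the most held 75.4%.

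At least 10 UMIs of Ptf1a were found in 58 EL1 cells, which held 52.2% of the UMIs in the epithelium, and in 23 WTg cells, which held 44.3%. Of the 58, 23 were Atp4b/Klk1 and 14 Fos/Egr4 cells, and of the 23, 9 were Top2a/Mki67 and 6 Fos/Egr4 cells. At the other end, 59.7% of EL1 and 69.8% of WTg epithelial cells had no Ptf1a UMI. The cells with at least 10 had a median enzyme share of 9.04% in EL1 and 17.5% in WTg, against 13.6% and 19.5% in the cells with none. They were also deeper (medians of 47131.5 against 23613 UMIs in EL1 and 56781 against 32004 in WTg), and the part of depth in this difference was not tested. Fos itself was at 3849 and 3592 CPM in the Fos/Egr4 cells of EL1 and WTg and at 83.7 CPM in the Atp4b/Klk1 cells, which had as much Ptf1a. Whether immediate early genes came from the digestion of the tissue was not tested.

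Rbpjl, the adult PTF1 subunit, was the most even of the 7 over the large groups. Its highest level there was 228 CPM (218 to 240) in the neuroendocrine-like Serpina1c/Pcsk2 cells of WTg, and its lowest 87.3 CPM (77.6 to 97.9) in the Atp4b/Klk1 cells, a span of 2.62-fold. Next, and apart from it, came the Fst/Smarca1 cells (174 CPM), the Fos/Egr4 cells of EL1 (171 CPM), the Resp18/Penk cells (169 CPM) and the Fos/Egr4 cells of WTg (166 CPM), whose intervals overlapped from neighbour to neighbour. The enzyme-rich S100g/Thbs1, Sycn/Prss1 and Ctrl/Spp1 cells followed at 105 to 116 CPM. The neuroendocrine-like cells of each library thus had a higher Rbpjl level in CPM than the enzyme-rich cells of the same library. In Atp4b/Klk1 cells the subunits of PTF1 parted, with Ptf1a near its highest and Rbpjl at its lowest level among the large groups. This Rbpjl level overlapped that of the Top2a/Mki67 cells next above it (101 CPM, 92.2 to 111). Rbpjl overlaps Matn4 on the opposite strand by 2020 bases (Matn4 had 3327 UMIs). Ptf1a likewise overlaps Ptf1aos by 1012 bases (1 UMI), and Gata6 overlaps another gene by 504 bases (18 UMIs). Whether counting used the strand was not given in the sources used here.

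Bhlha15, the scaling factor of secretory cells, was highest among the large groups in Fos/Egr4 cells of WTg (155 CPM, 132 to 180) and next in the Sycn/Prss1 cells of WTg (123 CPM, 117 to 129). Serpina1c/Pcsk2 cells of WTg followed at 88.1 CPM (81.3 to 95.3), and none of these 3 overlapped its neighbour. The large EL1 groups lay between 28.8 CPM (24.6 to 33.5), in Pbk/Ccna2 cells, and 68.0 CPM (60.3 to 76.4), in Fst/Smarca1 cells. The enzyme-rich S100g/Thbs1 cells of EL1 had 43.5 CPM (39.9 to 47.4), about the level of EL1 as a whole. The other large WTg groups, Ctrl/Spp1 cells at 66.1 CPM and Top2a/Mki67 cells at 52.8 CPM, lay among those of EL1, so Bhlha15 followed neither the library nor the enzyme content throughout.

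Nr5a2, the nuclear receptor that assists PTF1, ranged over the large groups from 36.0 CPM (28.6 to 44.7) in Fos/Egr4 cells of EL1 down to 3.87 CPM (2.06 to 6.62) in Atp4b/Klk1 cells, where it had 13 UMIs in all. Of the 10 pairs of neighbours in the order, 9 overlapped, and only the lowest group stood apart from the next, S100g/Thbs1 cells at 12.9 CPM (10.9 to 15.1). The small Serpina1c/Pcsk2 group of EL1 had 46.8 CPM (33 UMIs). Among the large groups, Gata4 had its highest level where Nr5a2 had its lowest. It reached 101 CPM (90.2 to 112) in Atp4b/Klk1 cells, apart from the 56.1 CPM (49.4 to 63.5) of Top2a/Mki67 cells that came next, and its lowest level was 17.6 CPM (15.3 to 20.2) in S100g/Thbs1 cells. The Atp4b/Klk1 cells therefore combined high Ptf1a and Gata4 with the lowest Rbpjl, Nr5a2, Gata6 and Foxa3 of the 11 groups. Of these lowest levels, only that of Nr5a2 stood apart from the next group. The intervals of Rbpjl, Gata6 and Foxa3 overlapped that of the next, and Gata6 rests on 1 UMI. Atp4a and Atp4b are also markers of gastric parietal cells. Of the 5 gastric markers sought, Atp4b/Klk1 cells raised only Atp4a (471 CPM) and Atp4b (739 CPM), with Tff1 and Gkn3 at 0. The 5 summed to 1863 CPM there, against 602 and 1586 CPM in Fos/Egr4 cells of EL1 and WTg. Atp4b was at 0 in the Fos/Egr4 cells, so the sum also rests on other markers.

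Gata6, the second GATA factor, had 0.298 CPM (1 UMI) to 2.88 CPM (1.68 to 4.61) in the large EL1 groups and 5.43 CPM (3.52 to 8.02) to 20.5 CPM (17.3 to 24.1) in the large WTg groups. The 5 WTg values thus all lay above the 6 EL1 values, although the intervals of the nearest pair, Pbk/Ccna2 cells of EL1 and Ctrl/Spp1 cells of WTg, overlapped. Of the 13467 genes with at least 50 UMIs, 1.51% separated the large groups in this direction and 3.39% in the other, and Gata6 was the only member among them. The small groups did not keep to this order. The shallow Kcnq1ot1/Malat1 cells of EL1 and Reg2/Ptgds cells of WTg had 6.35 and 2.88 CPM, from 1 UMI each. The 26 Serpina1c/Pcsk2 cells of EL1 had 27 Gata6 UMIs in 13 cells, or 38.3 CPM (25.3 to 55.8), which is 34.6% of all Gata6 UMIs of EL1 in 2.34% of its cells. Their Mettl3 level was 12.8 CPM, near the 15.1 CPM of EL1 as a whole and below the 65.6 CPM of the WTg cells of the same cluster. Foxa3, the endodermal forkhead factor, was highest among the large groups in the Serpina1c/Pcsk2 cells of WTg (112 CPM, 104 to 120), apart from every other large group, and lowest in Atp4b/Klk1 cells (29.2 CPM, 23.7 to 35.6) and S100g/Thbs1 cells (31.8 CPM, 28.6 to 35.1), whose intervals overlapped.

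The relation to digestive enzymes was followed over cells ranked by the share of their UMIs that came from 30 enzyme genes (1 of the 31 listed was not in the matrix). Trypsinogens and amylases are families of near-identical genes whose reads may be split among copies. The sum over the list absorbs this only among the copies that are on the list. The tumour epithelium of both libraries together was cut into quintiles at 7.09%, 12.4%, 18.6% and 25.1%. The lowest quintile held 253 EL1 and 115 WTg cells and the highest 143 EL1 and 225 WTg cells. Across the quintiles of EL1, Ptf1a went from 104 CPM (95.9 to 112) through 65.0, 45.7 and 27.5 CPM to 32.5 CPM (28.4 to 37.1), and in WTg from 82.0 CPM (69.9 to 95.7) through 54.4, 35.3 and 22.3 CPM to 22.7 CPM (19.8 to 25.9). In both libraries the fourth and the highest quintile overlapped and all 3 below them lay higher. The log2 ratio of the highest over the lowest quintile was -1.68 (-1.90 to -1.45) in EL1 and -1.85 (-2.15 to -1.55) in WTg. The cells with the most enzyme RNA thus had a lower Ptf1a level in CPM than the enzyme-poor cells in both tumours.

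**Figure D2:**
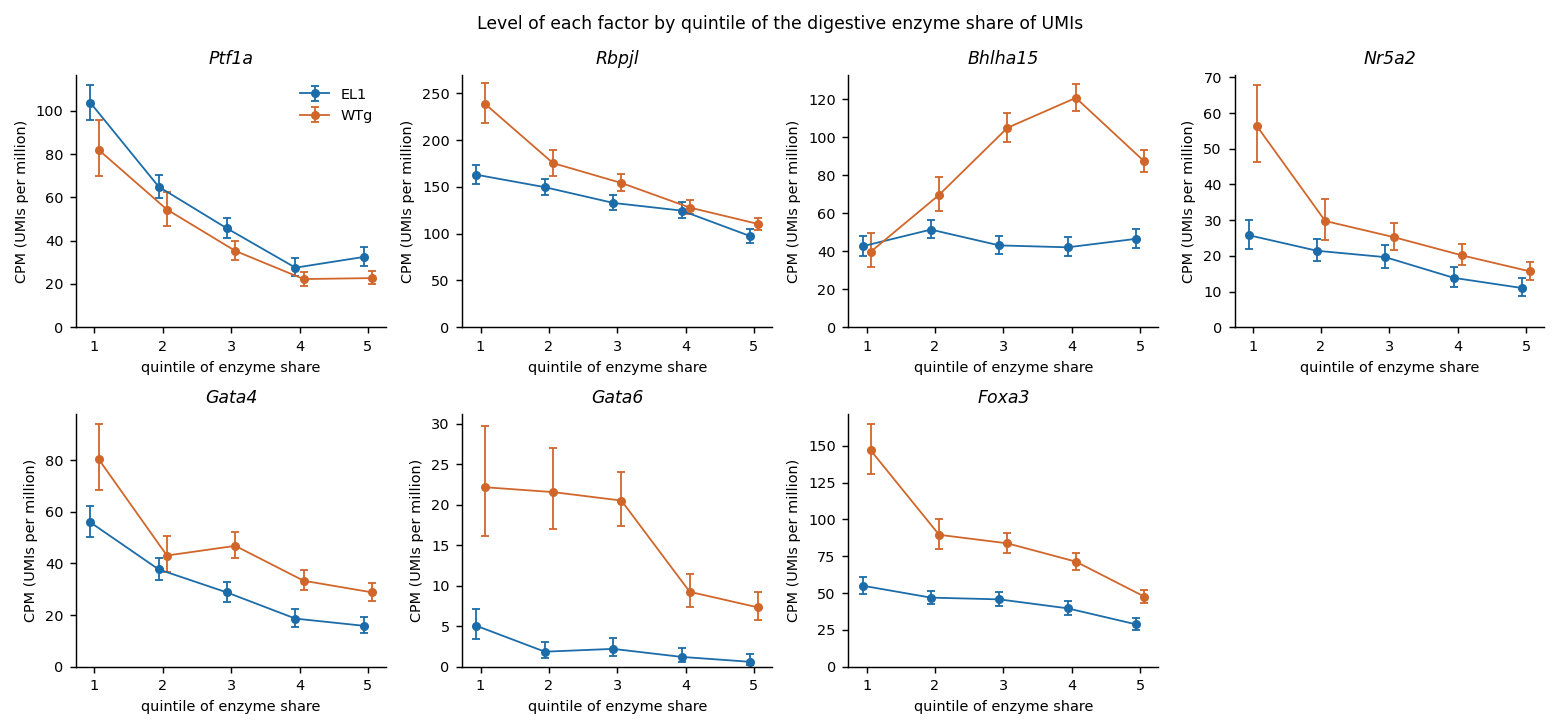
Level of each factor (CPM) in quintiles of the tumour epithelium by the share of UMIs from digestive enzymes (1 lowest, 5 highest), with the same limits in both libraries. Points are summed counts and bars exact 95% Poisson intervals. Ptf1a went from 104 to 32.5 CPM in EL1 and from 82.0 to 22.7 CPM in WTg, while Bhlha15 was flat in EL1 and peaked in the fourth quintile of WTg at 121 CPM.

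The other factors followed the same direction, with the exception of Bhlha15. Gata4 went from 56.0 to 15.8 CPM in EL1 (log2 ratio -1.82, -2.15 to -1.51) and from 80.5 to 28.8 CPM in WTg (-1.48, -1.77 to -1.19). Nr5a2 went from 25.8 to 10.98 CPM (-1.23, -1.65 to -0.83) and from 56.4 to 15.6 CPM (-1.85, -2.21 to -1.49). Foxa3 went from 55.0 to 28.7 CPM (-0.94, -1.20 to -0.68) and from 147 to 47.6 CPM (-1.63, -1.84 to -1.41). Gata6 had 31 UMIs in the lowest and 4 in the highest quintile of EL1, and 22.1 against 7.30 CPM in WTg (-1.60, -2.16 to -1.02). Rbpjl went from 163 to 97.5 CPM in EL1 (-0.74, -0.88 to -0.60) and from 239 to 110 CPM in WTg (-1.11, -1.27 to -0.96). Bhlha15 was at 42.7 CPM in the lowest and 46.6 CPM in the highest quintile of EL1, a log2 ratio of 0.13 whose interval (-0.11 to 0.37) held 0, and at 39.8 and 87.4 CPM in WTg (1.14, 0.80 to 1.49).

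These ratios must be read against all genes, because enzyme transcripts take more of the total in the highest quintile. By construction this leaves a smaller part of the total to other genes. Whether it makes up the whole shift of the median gene was not tested. Among genes with at least 50 UMIs in the cells compared, 33.7% of 10301 were at least 2-fold lower in the highest quintile of EL1 and 50.2% of 9563 in that of WTg, and the median log2 ratio was -0.76 and -1.002. In the other direction, 1.40% and 2.29% were at least 2-fold higher. Of the 7 members, 4 were at least 2-fold lower and 0 at least 2-fold higher in EL1 (3 among the 6 with at least 50 UMIs, as Gata6 had fewer), and 6 were lower and 1, Bhlha15, was higher in WTg. Relative to the median gene, Ptf1a stood at -0.92 in EL1 and -0.85 in WTg on the log2 scale. With enzymes and accessory acinar genes taken out of the total instead, its ratio was -1.17 in EL1 and -1.24 in WTg. Relative to the median gene again, Gata4 stood at -1.07 and -0.48 and Nr5a2 at -0.48 and -0.85. Rbpjl, at 0.02 and -0.11, stood near the median gene. Bhlha15, at 0.88 and 2.14, stood above it in both libraries.

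The makeup of the quintiles differed. Of the lowest quintile of EL1, 81 of 253 cells were Resp18/Penk, 34 Atp4b/Klk1 and 31 Fos/Egr4 cells, and 37 were shallow Kcnq1ot1/Malat1 cells. Of the highest, 110 of 143 were S100g/Thbs1 cells. Of the lowest quintile of WTg, 52 of 115 were the shallow Kcnq1ot1/Malat1 cells and 36 Serpina1c/Pcsk2 cells, and of the highest, 101 of 225 were Sycn/Prss1 and 79 Ctrl/Spp1 cells. The 8 neuroendocrine markers summed to 8890 CPM in the lowest and 1071 CPM in the highest quintile of EL1 and to 9625 and 1228 CPM in WTg, with Scg2 at 0 in both quintiles of EL1 and Pcsk2 at 0 in its highest. Most of that sum was Chga (7934 CPM in the lowest quintile of EL1 and 7761 CPM in that of WTg). The 6 macrophage markers summed to 62.6 and 10.3 CPM in EL1 and to 183 and 59.5 CPM in WTg, lowest quintile first. The 6 ductal markers summed to 205 and 49.9 CPM in EL1 and to 276 and 309 CPM in WTg, with Cftr at 0 in all 4 quintiles. The 6 fibroblast markers were at 0 in both quintiles of EL1 and summed to 2.01 and 0.822 CPM in WTg. Their part in the ratios was not tested. Without Fos/Egr4 and Atp4b/Klk1 cells, the ratio of Gata4 in EL1 was -1.08, and without the shallow clusters that of Bhlha15 in WTg was 0.65, short of the 2-fold difference. With all kept cells ranked, where immune cells enter the lowest quintile, no member was 2-fold lower in WTg and Bhlha15 stood at 2.27.

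Cells of 1 cluster and 1 library were therefore split at their own median enzyme share, which gave 13 groups of at least 40 cells. Here too the ratios must be read against all genes, since the enzyme share differs by construction. The median gene with at least 50 UMIs was below 0 in 13 of 13 groups (-0.57 to -0.14), and over all groups 35.6% of 80734 gene values had an interval below 0 and 3.68% one above 0. Gata4 was lower in the enzyme-rich cells of 10 of the 12 groups in which it had a value, and the interval lay below 0 in 7 and above 0 in none. It lay below the median gene of the group in 3. Ptf1a was lower in 8 of 12, with 5 intervals below 0 and 1 above, the latter in the shallow Kcnq1ot1/Malat1 cells of WTg. Its interval lay below the median gene in 4 groups and above it in 2. Its widest gap in a deep group was in the Atp4b/Klk1 cells, at a log2 ratio of -1.40 (-1.67 to -1.14), followed by Top2a/Mki67 cells at -1.16 (-1.51 to -0.81) and Serpina1c/Pcsk2 cells of WTg at -1.07 (-1.52 to -0.63). In the Fos/Egr4 cells of EL1 it was 0.02 (-0.29 to 0.34) and in the S100g/Thbs1 cells 0.10 (-0.26 to 0.47). Nr5a2 had 5 intervals below 0 and none above among 11 values, Foxa3 4 and none among 13, and Rbpjl 4 and 1 among 13. Against the median gene, the intervals of Nr5a2 lay below in 3 and above in none, those of Foxa3 below in 2 and above in none, and those of Rbpjl below in 1 and above in 3. Bhlha15 had 2 below 0 and 3 above among 12, and 1 below the median gene and 7 above it, with the extremes of the deep groups in Ctrl/Spp1 cells (-1.08, -1.42 to -0.74) and Top2a/Mki67 cells (0.98, 0.55 to 1.42). Gata6 had 9 values and no interval that excluded 0. The shares of all genes above used only values with at least 50 UMIs. With that limit, 7 of 10 intervals of Gata4 lay below 0 and 0 above. The counts were 5 and 0 of 10 for Ptf1a, 5 and 0 of 9 for Nr5a2 and 4 and 0 of 10 for Foxa3. They were 4 and 1 of 11 for Rbpjl, 2 and 2 of 10 for Bhlha15 and 0 and 0 of 3 for Gata6.

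**Figure D3:**
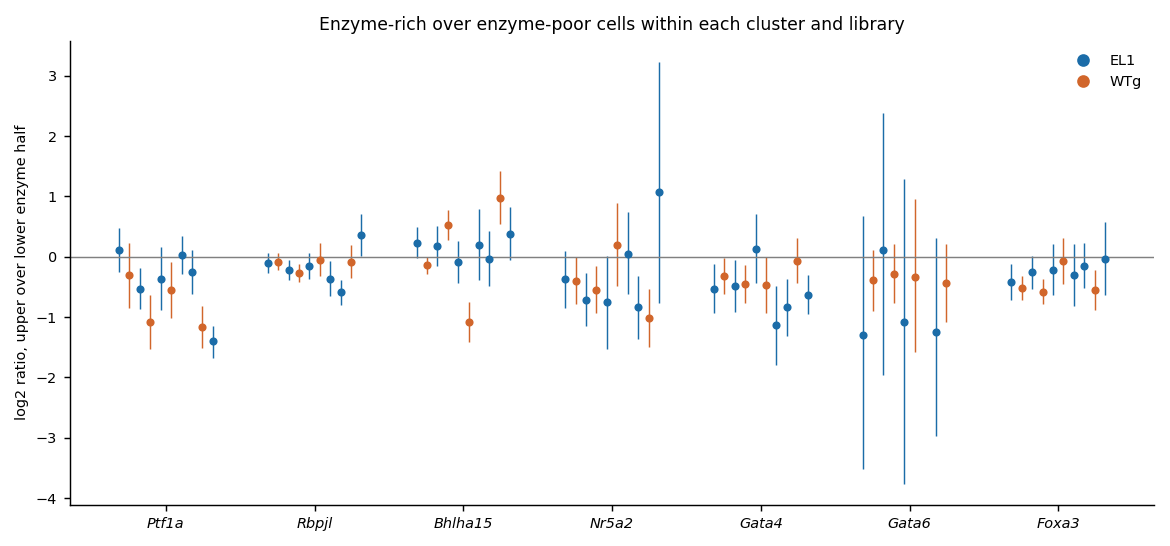
Log2 ratio of each factor in cells above over cells below the median enzyme share of their group, 1 point per cluster and library with at least 40 cells (Kcnq1ot1/Malat1 and Reg2/Ptgds cells are not drawn). Bars are exact 95% intervals of counting error. The points of Gata4 lie mostly below 0 (median over all groups -0.46, against -0.30 for the median gene), whereas those of Bhlha15 lie on both sides (-1.08 to 0.98 in the groups drawn).

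The levels of the factors were then set side by side between the libraries. Over all kept cells, Gata6 was at 2.05 CPM (1.62 to 2.56) in the EL1 library against 13.1 CPM (11.9 to 14.4) in the WTg library, or 6.35-fold higher in WTg (4.98 to 8.20). Bhlha15 had 43.9 CPM (41.8 to 46.0) and 91.6 CPM (88.4 to 95.0), or 2.09-fold higher (1.97 to 2.22). Foxa3 had 41.9 and 70.4 CPM, a log2 ratio of 0.75 (0.65 to 0.84). Gata4 had 30.5 and 37.4 CPM (0.29, 0.18 to 0.41) and Nr5a2 18.1 and 22.3 CPM (0.30, 0.15 to 0.45). Rbpjl, with 129 and 135 CPM (0.06, 0.00 to 0.12), was nearly level. Ptf1a was the only member lower in WTg, at 52.8 CPM (50.5 to 55.2) in EL1 against 31.4 CPM (29.5 to 33.3) in WTg (-0.75, -0.86 to -0.64).

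Thus 2 of the 7 members, Gata6 and Bhlha15, were at least 2-fold higher in WTg, and 0 were at least 2-fold lower. With cells weighted equally, Bhlha15 was at 0.95 and 1 member, Gata6, passed. Of the 13467 genes with at least 50 UMIs, 6.85% were at least 2-fold higher and 4.59% at least 2-fold lower. The median gene had a log2 ratio of -0.15, and TMM scaling would raise every ratio by 0.13. The median of the 7 members was 0.30. As each library is mostly made of its own clusters, tumour makeup, strain and transgene cannot be told apart in any of these ratios.

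At matched enzyme share, the direction held for most members but not the size. Ptf1a was lower in WTg in 5 of 5 quintiles, by log2 ratios from -0.52 to -0.26, closer to 0 than over all cells. Without Fos/Egr4 and Atp4b/Klk1 cells its ratio over all cells was -0.37, and that of Gata4 was 0.71. Gata6 was higher in WTg in every quintile (2.14 to 3.64). Foxa3 was higher in each, most in the lowest (1.42, 1.19 to 1.65) and least in the highest (0.73, 0.49 to 0.98). Bhlha15 was level in the lowest quintile (-0.10, -0.48 to 0.27) and highest relative to EL1 in the fourth (1.52, 1.33 to 1.71). Nr5a2 was higher in WTg by 1.13 (0.77 to 1.49) in the lowest quintile and by 0.36 to 0.54 in the others. Gata4 was higher by 0.19 to 0.86, with an interval that held 0 in the second quintile, and Rbpjl by 0.04 to 0.55, with one that held 0 in the quintile above the middle.

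**Figure D4:**
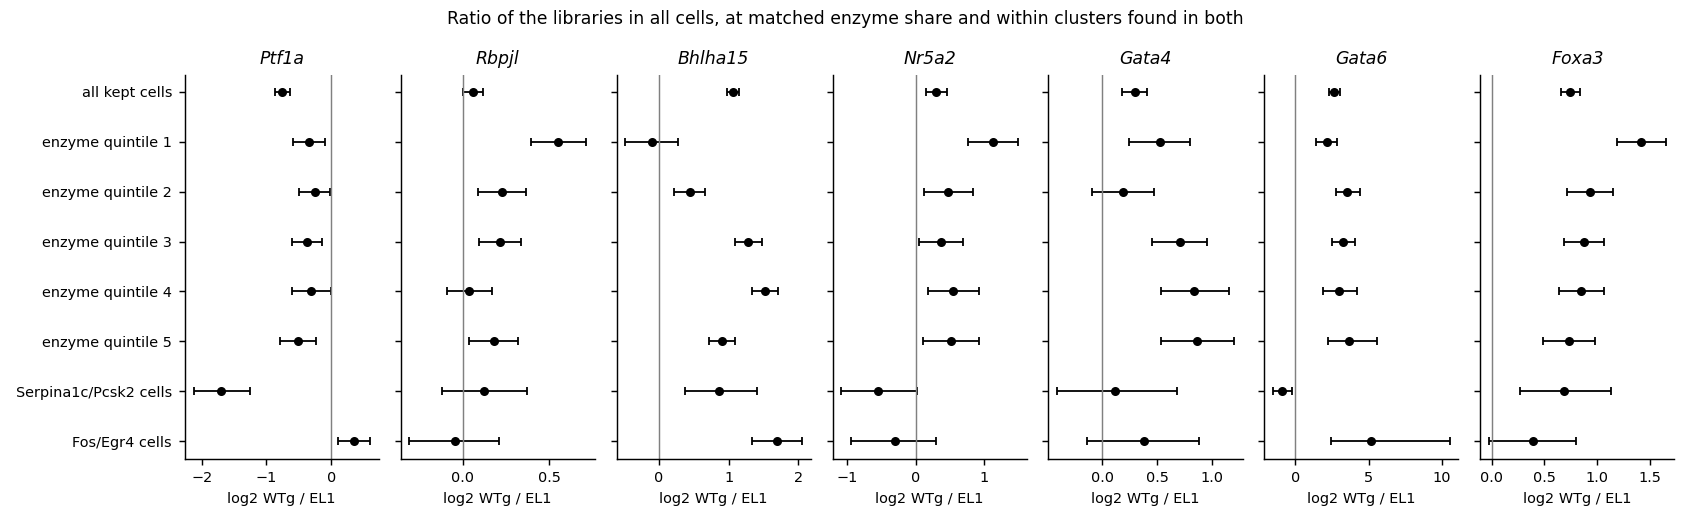
Log2 ratio of WTg over EL1 for each factor over all kept cells, in each quintile of enzyme share (1 lowest, 5 highest) and in the 2 deep clusters with at least 20 cells of each library. Bars are exact 95% intervals of counting error, and the horizontal scales differ between factors. Ptf1a lies below 0 except in Fos/Egr4 cells (0.35), and Gata6 above 0 except in Serpina1c/Pcsk2 cells (-0.90).

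Only 2 deep tumour clusters held at least 20 cells of each library. In Fos/Egr4 cells (79 EL1, 33 WTg), Bhlha15 was at 47.9 CPM in EL1 and 155 CPM in WTg (log2 ratio 1.69, 1.34 to 2.05) and Ptf1a at 157 and 200 CPM (0.35, 0.10 to 0.60). Gata6 had 1 UMI in EL1 and 17 in WTg there (5.14, 2.46 to 10.52). In Serpina1c/Pcsk2 cells (26 EL1, 178 WTg), Ptf1a was at 83.7 and 25.9 CPM (-1.70, -2.13 to -1.25), Bhlha15 at 48.3 and 88.1 CPM (0.87, 0.37 to 1.41), Foxa3 at 69.6 and 112 CPM (0.69, 0.27 to 1.13) and Gata6 at 38.3 and 20.5 CPM (-0.90, -1.50 to -0.25). Rbpjl, Nr5a2 and Gata4 had intervals that held 0 in both clusters. Bhlha15 was therefore higher in WTg in both, while Ptf1a and Gata6 took opposite directions. The EL1 and WTg cells of these clusters differed in other ways too. Their median enzyme share was 9.20% and 18.1% in Fos/Egr4 cells and 4.18% and 12.6% in Serpina1c/Pcsk2 cells, EL1 first. The 8 neuroendocrine markers summed to 6692 and 2205 CPM in Fos/Egr4 cells of EL1 and WTg. The part of these differences in the ratios was not tested. The clusters led by histone and cell division genes had 28.8 CPM of Bhlha15 in EL1 (Pbk/Ccna2) and 52.8 CPM in WTg (Top2a/Mki67). Their Ptf1a was at 44.6 and 65.7 CPM. They do not stand for all dividing cells of a library. Mki67 was at 485 CPM in Pbk/Ccna2 and 701 CPM in Top2a/Mki67 cells. It was also at 451 CPM in Atp4b/Klk1 cells of EL1, where Ptf1a was at 173 CPM, and at 651 CPM in the shallow Kcnq1ot1/Malat1 cells of WTg.

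The partners of these factors were described from lists, by counts of genes at least 2-fold apart among those with at least 50 UMIs. Between libraries, 6.85% of all such genes were 2-fold higher and 4.59% 2-fold lower in WTg. Of 4 PTF1 partners (Rbpj, Tcf3, Tcf12 and Tcf4, the embryonic subunit and 3 E-proteins), 0 were 2-fold apart between libraries (median log2 -0.28). Toward the enzyme-rich quintile, 0 of 4 in EL1 and 3 of 4 in WTg were 2-fold lower, with medians of -0.80 and -1.33 against -0.76 and -1.002 for all genes, of which 33.7% and 50.2% were 2-fold lower. Of 4 targets of Bhlha15 in the secretory apparatus (Rab3d, Rab26, Atp2c2 and Gjb1), 1 was 2-fold higher in WTg, Atp2c2, a calcium pump of the secretory pathway with 39 and 170 UMIs. Rab3d and Rab26, vesicle GTPases, had ratios of -0.06 and -0.88, against 1.06 for Bhlha15, and the TMM shift would bring that of Rab3d above 0. Of 29 digestive enzymes, 14 were 2-fold higher and 1, Pla2g1b, lower in WTg (median 0.46), and toward the enzyme-rich quintile, which they define, 18 of 25 and 27 of 29 were higher. Prss1 and Ctrb1, whose promoters share the pair shown above, had library ratios of 7.19 and 0.29, and Cela1 had 0.31.

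The library counts of the other lists are to be read against the same shares of all genes, 6.85% higher and 4.59% lower in WTg. Of 5 other Foxa and Hnf factors tested, 0 were 2-fold apart (median -0.04), Foxa2 having -0.70 against 0.75 for Foxa3. Of 4 progenitor and duct factors, 0 were 2-fold apart (median -0.59), with Pdx1, the pancreatic homeobox factor, at -0.71 and Sox9, a duct and progenitor factor, at -0.46. Of 4 endocrine factors with enough UMIs, 1, Insm1, a zinc finger factor of endocrine cells, was 2-fold lower in WTg (-1.25). Of 4 factors of the endoplasmic reticulum, 0 were 2-fold apart, Xbp1 being at -0.42 and Creb3l1 at 0.95. Zfpm1, a GATA cofactor, was at 0.86 and fell short of 2-fold. Toward the enzyme-rich quintile, 33.7% of all genes in EL1 and 50.2% in WTg were 2-fold lower. Of the other Foxa and Hnf factors, 2 of 4 in EL1 and 4 of 4 in WTg were 2-fold lower, with medians of -1.03 and -1.90 against -1.08 for the 6 members with at least 50 UMIs in EL1 and -1.60 for the 7 in WTg. Of the progenitor and duct factors, 2 of 4 were 2-fold lower in each library, Prox1, a homeobox factor, being at -2.26 and -2.83. Of the factors of the endoplasmic reticulum, 3 of 4 in EL1 and 1 of 4 in WTg were 2-fold lower. Zfpm1 was at -1.88 and -2.82, and Insm1, the endocrine factor with enough UMIs, at -1.19 and -5.18.

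Patterns over cell groups were compared among the 11052 genes with at least 200 UMIs, by Pearson's r of log2(CPM + 10) over 19 groups of cluster and library. These groups share 2 libraries and differ in depth. The 3 groups of immune-like or endothelial-like cells pull all epithelial genes together, so r is a description. Most like Ptf1a were Dnaja4, a heat shock co-chaperone (0.88), Xbp1, the factor of the unfolded protein response (0.88), and Usp2 (0.85). Most like Rbpjl were Hid1 (0.95), Kif21a (0.94) and Plpp5 (0.92), and most like Bhlha15 were Cpox (0.93), Tcim (0.92) and Insig1 (0.92). Nr5a2 was closest to Zfp275 (0.92), Map1b (0.91) and Casc4 (0.91), and Gata4 to Insig1 (0.92), Paip2b (0.90) and Sc5d (0.89). Gata6 was closest to Scn3a (0.94), Hdgfl3 (0.92) and Adgrf5 (0.91), and Foxa3 to Tmem263 (0.96), Slc2a5 (0.95) and Gfra1 (0.94). Among the members themselves, r was highest for Bhlha15 with Foxa3 (0.86) and lowest for Ptf1a with Gata6 (0.30). Between single cells thinned to 2000 UMIs, the 21 pairs had r from -0.05 to 0.08 over 967 EL1 cells and from -0.03 to 0.08 over 764 WTg cells, too sparse to order.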

How the data were processed

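Single cells of mouse pancreatic tumours were profiled with 10x Chromium 3′ chemistry in 1 EL1 and 1 WTg library. The deposited values are raw UMI counts for each gene in each barcode, and per the file headers the authors used Cell Ranger 6.0.2. The submitters' processing notes name GRCm38, R 4.1 and Seurat 4.0.5. Counting of intronic reads and strand was not given in the sources used here. A second deposited table of counts per library was used as an alternative only.

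Barcodes with at least 500 genes, 1000 UMIs and at most 20% mitochondrial UMIs were kept. Scrublet (scanpy 1.11.5, expected rate 2%) called 2 doublets in EL1 and 3 in WTg, and these were kept. Cells were clustered (Leiden, resolution 1, leidenalg 0.10.2) on 2000 variable genes with 30 components and 15 neighbours, without the members, Mettl3 and the cell cycle genes of Seurat 5.3.0 (R 4.3.3). No correction between libraries was made. A cluster took the name of the class with the most markers raised, when these were at least 3. UMIs were summed over cells as CPM, with exact Poisson intervals, exact conditional binomial intervals for ratios and Clopper-Pearson intervals for shares. Ratios were checked on simulated data. TMM factors came from edgeR 4.0.16. Groups needed 20 cells, and 2-fold counts used genes with at least 50 UMIs.

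The members and lists were chosen with earlier results of these data known. The genes named are the members, the lists and, for each member, the 3 genes with the highest r of log2(CPM + 10) over groups, among genes with at least 200 UMIs. Immune-like background used macrophage-, T or NK- and B-like cells in place of the planned neutrophil-like ones, since no cluster took that name. The cell filter, the doublet calls, the scaling, the denominator, the enzyme bins, the depth and the clustering were each varied. Leaving out the Fos/Egr4 and Atp4b/Klk1 cells, the shallow clusters or cells of at least 10000 genes was chosen after seeing the data. Promoter windows are from RefSeq (GRCm38.p6). From the list of other Foxa and Hnf factors, 1 gene is not reported here.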

Additional observations from a re-analysis of the deposited data

Results flagged for a closer look

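The library difference of Ptf1a took opposite directions in the 2 deep clusters that both libraries shared, with a log2 ratio of WTg over EL1 of -1.70 in Serpina1c/Pcsk2 cells and 0.35 in Fos/Egr4 cells. That of Gata6 did so too, at -0.90 and 5.14, the latter from 1 against 17 UMIs. With 1 library per group, these differences between clusters were not tested. The EL1 side of the Serpina1c/Pcsk2 cells rests on 26 cells.

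The barcodes that the cell filter removed, 508 of EL1 and 583 of WTg, still held UMIs of all 7 factors, and they enter no comparison above. In EL1 the level there was 22.3 CPM for Ptf1a (27 UMIs), 149.5 CPM for Rbpjl (181 UMIs), 8.26 CPM for Bhlha15 (10 UMIs), 13.2 CPM for Nr5a2 (16 UMIs), 10.7 CPM for Gata4 (13 UMIs), 6.61 CPM for Gata6 (8 UMIs) and 14.0 CPM for Foxa3 (17 UMIs). In WTg it was 13.9 CPM for Ptf1a (26 UMIs), 129 CPM for Rbpjl (241 UMIs), 41.8 CPM for Bhlha15 (78 UMIs), 16.6 CPM for Nr5a2 (31 UMIs), 30.6 CPM for Gata4 (57 UMIs), 20.4 CPM for Gata6 (38 UMIs) and 18.8 CPM for Foxa3 (35 UMIs). Rbpjl was thus near its level in kept cells (129 and 135 CPM), whereas Ptf1a, Bhlha15, Nr5a2, Gata4 and Foxa3 were below theirs in both libraries and Gata6 above its own (2.05 and 13.1 CPM).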

How the results depend on the processing

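The alternatives gave 332 values. For 221, the move was no larger than counting error or, for counts and percents of genes, than 1.5 times, for 110 it was larger, and 1 was reversed. Of the 223 log2 ratios among them, 2 changed sign, namely Gata6 in WTg on thinned cells (below) and Bhlha15 in EL1, which was -0.094 with tertiles against a reported 0.13 whose interval held 0. The count of members 2-fold lower in enzyme-rich EL1 cells, 4 as reported, ranged from 3 to 6. Causes were not tested, except where the construction of an alternative gives one. No paired analysis was possible because EL1 and WTg are single libraries, which also leaves no replicate to omit.

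Between libraries, TMM scaling gave log2 ratios of -0.62 for Ptf1a, 0.19 for Rbpjl, 1.20 for Bhlha15, 0.43 for Gata4 and 0.88 for Foxa3. With cells weighted equally, Bhlha15 was at 0.95 and Nr5a2 at 0.084, and 1 member passed 2-fold. With enzymes and accessory genes out of the denominator, Rbpjl was at 0.16, Bhlha15 at 1.17 and Foxa3 at 0.85. Without Fos/Egr4 and Atp4b/Klk1 cells, Ptf1a was at -0.37 and Gata4 at 0.71. At a log2 ratio of 0.5, 4 members passed.

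For the highest over the lowest enzyme quintile of EL1, the denominator without enzymes and accessory genes gave -1.17 for Ptf1a, -0.23 for Rbpjl, 0.63 for Bhlha15, -0.73 for Nr5a2, -1.32 for Gata4 and -0.43 for Foxa3. Thinning to 2000 UMIs gave -2.07 for Ptf1a, 0.87 for Bhlha15, -1.94 for Nr5a2, -1.38 for Gata4 and -1.30 for Foxa3. Equal weights gave -1.03 for Ptf1a, -1.16 for Rbpjl, 0.55 for Bhlha15, -1.38 for Gata4 and -5.08 for Gata6. Tertiles gave -0.50 for Rbpjl, all kept cells -0.35 for Rbpjl and 0.76 for Bhlha15, and the list without trypsinogens -0.44 and 0.46. Without Fos/Egr4 and Atp4b/Klk1 cells, Rbpjl was at -1.03 and Gata4 at -1.08.

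In WTg, all kept cells, whose lowest quintile includes immune cells, gave -0.67 for Ptf1a, -0.033 for Rbpjl, 2.27 for Bhlha15, -0.67 for Nr5a2, -0.15 for Gata4, -0.97 for Gata6 and -0.75 for Foxa3, with 0 members 2-fold lower. The denominator without enzymes and accessory genes gave -1.24 for Ptf1a, -0.50 for Rbpjl, 1.75 for Bhlha15, -1.24 for Nr5a2, -0.87 for Gata4, -0.99 for Gata6 and -1.02 for Foxa3, with 3 members 2-fold lower. Thinning gave -0.94 for Ptf1a, -1.09 for Foxa3 and the reversed value of 1.66 for Gata6, which rests on 1 against 7 thinned UMIs. Quintiles within each library gave 0.47 for Bhlha15 and -1.10 for Gata4, and tertiles -0.84 for Rbpjl, -1.42 for Nr5a2, -1.06 for Gata4 and -1.13 for Foxa3. The list without trypsinogens gave -0.77 for Rbpjl, -1.13 for Gata4 and -1.38 for Foxa3, and equal weights -1.32 for Ptf1a, -1.58 for Rbpjl and -0.88 for Foxa3. Bhlha15 was at 0.72 with the stricter cell filter and 0.65 without shallow clusters. The count of members 2-fold higher in WTg, 1 in the report, was 0 with quintiles within each library, tertiles, the list without trypsinogens, the stricter filter, and without the Fos/Egr4 and Atp4b/Klk1 cells or the shallow clusters.

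The log2 span over cell groups was 2.97 for Gata6 at clustering resolution 0.5, and 5.07 for Ptf1a, 1.72 for Rbpjl, 2.77 for Gata4 and 2.53 for Foxa3 at resolution 2. The share of cells with a UMI, unthinned, was 37.6% and 27.6% for Ptf1a, 80.8% and 77.3% for Rbpjl, 51.8% and 59.1% for Bhlha15, 32.4% and 38.7% for Nr5a2, 46.5% and 53.1% for Gata4, 4.85% and 27.0% for Gata6, and 50.9% and 60.9% for Foxa3 in EL1 and WTg. Thinned to 1000 UMIs it was 5.39% and 2.21% for Ptf1a, 13.3% and 12.9% for Rbpjl, 3.68% and 7.96% for Bhlha15, 2.70% and 3.87% for Gata4, 0.180% and 1.22% for Gata6, and 3.23% and 5.30% for Foxa3. Between libraries, 4.22% of genes were 2-fold higher and 2.96% lower among those with at least 200 UMIs, 6.90% were lower among those with at least 10, and 2.29% were 2-fold higher in the enzyme-rich quintile of EL1 among those with at least 10.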

Other observations

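Across the 16 epithelial groups of cluster and library with at least 20 cells, Pearson's r of the level of each factor with the median enzyme share was -0.68 for Rbpjl, -0.44 for Nr5a2, -0.32 for Ptf1a, -0.28 for Gata4, -0.25 for Gata6, -0.10 for Foxa3 and 0.10 for Bhlha15. The groups share 2 libraries and differ in depth, and the shallow ones are included, so these values describe the groups only.

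Among the epithelial groups, Rbpjl had its highest level in CPM in the shallow Kcnq1ot1/Malat1 cells, whose enzymes took a median of 4.81% of UMIs. It was at 298.6 CPM (47 UMIs) in EL1 and 339.7 CPM (95 UMIs) in WTg. The 17 erythroid-like cells of EL1 had 337.5 CPM, from 13 UMIs.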
